A study of Mus musculus with 8 samples.

Results

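The genes described here are 44 mouse genes of DNA replication and S phase, chosen by name: origin licensing, helicase activation, polymerases, the sliding clamp and its loader, strand maturation, nucleotide supply, chromatin assembly and S phase entry. All 44 were found by their Ensembl gene IDs among 47069 genes. They were compared between 2 populations of regulatory T cells (Tregs, the CD4+ Foxp3-expressing cells that restrain immune responses). Both came from lymph nodes of C57BL/6 mice, aged 6 to 8 weeks, that carry the 35EbiT reporter and the Blimp1-GFP KI (knock-in) reporter. Cells were enriched as CD4+ and sorted as CD25+ CD62L low. Ebi3-Treg were Thy1.1+Blimp1- and Blimp1-Treg were Thy1.1-Blimp1+, so a population is defined by 2 reporters at once, and cells with both or neither reporter were not among the libraries used here. There were 4 RNA-seq libraries of each population, numbered 1 to 4. Numbers 1 and 2 were in one table and numbers 3 and 4 in another, and the labels do not say how many animals a library came from, so a p-value here reflects only the spread among the libraries, which may be partly technical. Levels are in FPKM (fragments per kilobase of transcript and per 1e6 mapped fragments).

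Before a cell copies its DNA, the origin recognition complex, Cdc6 and Cdt1 load the ring of Mcm2 to Mcm7 onto origins, which is called licensing. At the start of S phase, Cdc45 and the GINS complex turn that ring into an active helicase, and primase with polymerase alpha starts the strands that polymerases delta and epsilon extend on the Pcna clamp. Many of these genes are switched on by E2F transcription factors when a resting lymphocyte enters the cell cycle, and much of the Blimp1-expressing Treg pool is known as activated, effector Tregs. Blimp1 itself is a transcriptional repressor.

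The libraries held 13.3 to 31.3 M (1e6) fragments, as recovered from the smallest steps of the FPKM values, so that 1 read in a 1 kb transcript was worth 0.0320 to 0.0750 FPKM. Foxp3, the defining factor of Tregs, was at 182 to 406 FPKM and did not pass the test between the populations (limma adjusted p = 0.886). Transcripts of B cells were carried by both libraries numbered 1: 7 B cell markers summed to 221 and 154 FPKM there, with Cd79a at 65.1 and 52.0 FPKM, against sums of 31.4 to 71.4 FPKM and Cd79a at most 2.31 FPKM in the other 6. Some marker sums moved with the populations. The B cell sum was higher in Ebi3-Treg within every number, for example 48.6 against 31.4 FPKM in number 2 and 71.4 against 36.1 FPKM in number 3. In numbers 2 to 4 nearly all of it came from Cd22 and Cd79b (Cd79b limma adjusted p = 0.504, and 0.0135 with replicate numbers blocked). Other B cell markers were low there, and some went the other way in number 4: Ms4a1 at 0.722 against 1.27 FPKM, Ebf1 at 0.325 against 0.434 FPKM and Fcer2a at 0.202 against 0.395 FPKM. Cd79a and Pax5 did not, at 1.49 against 1.45 FPKM and 0.177 against 0.0531 FPKM. In numbers 2 and 3 all of these were higher in Ebi3-Treg, except Ebf1 in number 2. Of that list, Cd22 was at 43.1, 10.9, 44.5 and 28.8 FPKM in Ebi3-Treg 1 to 4 against 22.2, 4.02, 15.0 and 11.9 FPKM in Blimp1-Treg 1 to 4 (limma adjusted p = 0.29, and 0.000928 with replicate numbers blocked). The sum of 8 T cell and Treg markers was lower in Ebi3-Treg within every number, at 3100, 4619, 3027 and 3273 FPKM against 4752, 7002, 3873 and 3997 FPKM. Ctla4 had the largest gap in each number, at 718, 2135, 740 and 848 FPKM against 1691, 3829, 1094 and 1122 FPKM (limma adjusted p = 0.353, and 0.0115 with the block). Some of the 8 were higher in Ebi3-Treg in places: Ikzf2 in number 1, Cd4 in number 2, Cd3d and Il2ra in number 3, and Foxp3 and Il2ra in number 4. Cd3e values did not overlap, with Ebi3-Treg at 626 to 852 FPKM against 872 to 1126 FPKM (limma adjusted p = 0.104, and 0.00876 with the block). Stromal marker sums were 63.8, 30.3, 45.4 and 48.9 FPKM in Ebi3-Treg against 31.8, 16.4, 29.2 and 34.0 FPKM in Blimp1-Treg, nearly all from Pecam1, with Cdh5 and Pdpn listed at 0 in some libraries. None of the tested markers passed in the fit of both tables without the block. With numbers 3 and 4 alone some did. Cd22 and Pecam1 were higher in Ebi3-Treg (limma adjusted p = 0.0316 and 0.0350). Jchain and Ctla4 were lower (limma adjusted p = 0.0192 and 0.0379). Among 8 myeloid markers, whose sums ranged from 16.4 to 117 FPKM in Ebi3-Treg and from 11.8 to 36.2 FPKM in Blimp1-Treg, Lyz2 was at 99.1 and 91.1 FPKM in Ebi3-Treg 1 and 2 and Itgam was listed at 0 in Ebi3-Treg 3. Sums of 4 plasma cell markers ranged from 2.59 to 34.6 FPKM in Ebi3-Treg and from 4.40 to 23.4 FPKM in Blimp1-Treg, with Tnfrsf17 listed at 0 in Ebi3-Treg 3 and 4. In numbers 1 and 2 the sum was higher in Ebi3-Treg. In numbers 3 and 4 it was lower, at 3.27 and 2.59 against 8.98 and 18.9 FPKM. Jchain was there at 0.844 and 0.824 against 6.02 and 11.8 FPKM. The part of all these markers in the differences below was not tested beyond the fits without the libraries numbered 1 or 2. Xist was at most 0.0750 FPKM in numbers 1 and 2 and 18.5 to 24.4 FPKM in numbers 3 and 4, so the table and the sex of the mice cannot be told apart.

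Most replication genes were lower in Ebi3-Treg, and few by enough to pass the test. Of the 43 tested genes, 41 (95.3%) had a negative difference, which is the Ebi3-Treg mean minus that of Blimp1-Treg, averaged over the tables, in log2(FPKM + 1), against 40.8% of all 12273 genes tested, and for 8 genes the populations did not overlap over all 8 libraries, against 4.5% of all genes. Their median difference was -0.49, against 0.07 over all genes, with quartiles of -0.66 and -0.22. In limma with Benjamini-Hochberg adjustment over all genes, 7 of 43 (16.3%) passed at an adjusted p under 0.05, all lower in Ebi3-Treg, where the share of all genes called lower was 2.93%. These were Mcm6, Cdc6, Cdt1, Prim1, Rrm1, Rrm2 and Chaf1b. None was called higher (0 at an unadjusted p under 0.05 as well), where the share of all genes was 3.37%. In bulk RNA, fewer cells in S phase and less RNA of these genes per cell cannot be told apart. With the replicate number as a block, 20 of 43 were called lower, against 8.94% of all genes, and 0 higher, against 13.5%. Without both libraries numbered 1 the count was 18, and without both numbered 2 it was 17. When single libraries were left out, 2 genes were called if the library was any of Ebi3-Treg 2 to 4 or either of Blimp1-Treg 3 and 4. The count was 3 if it was Blimp1-Treg 1, 8 if it was Blimp1-Treg 2 and 10 if it was Ebi3-Treg 1. For the fits without some libraries the share of all genes called is not given here. Whether those changes of the count are particular to the list can therefore not be told from them. Rrm2 and Mcm6 passed under each of the 21 alternatives run, and the other 5 lost the call in several of them.

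**Figure D1:**
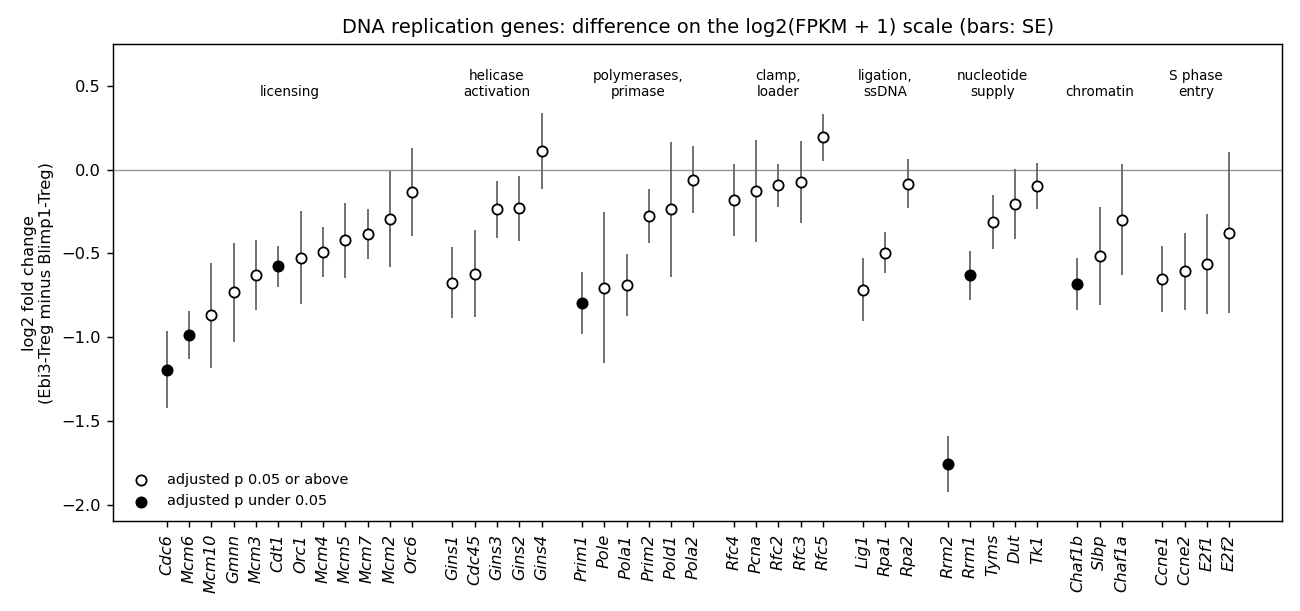
Difference between Ebi3-Treg and Blimp1-Treg for the 43 tested replication genes on the log2(FPKM + 1) scale (points, with standard errors as bars), grouped by role; filled points had an adjusted p under 0.05. All points except Gins4 and Rfc5 lie below 0, and Rrm2 lies lowest, at -1.76.

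Promoters of 35 of the 44 genes were matched by symbol in RefSeq (GRCm38.p6), as windows of 250 bases before to 50 bases after a start, 40 windows in all. Because E2F factors are themselves on the gene list, the windows were searched on both strands for 4 E2F words, TTTCCCGC, TTTCGCGC, TTTGCCGC and TTTGGCGC. At least 1 word was found for 13 of 35 genes (37.1%), against 4.93% of the 8840 matched genes among those tested and 2.26% of all 32851 windows. Stretches are shown for Mcm6, which has 3 words and was called lower, for Mcm5, which has the same overlapping pair of words in the mirrored order and was not called, for Cdc6 and Pola1 with 1 word each, and for Rrm2, which differed most between the populations and has none. Each runs 5′ to 3′ along the gene's own strand and ends 21 bases before the start, and capitals mark E2F words on either strand, with overlapping words run together.
Mcm6, chr1:128359726-128359865, minus strand: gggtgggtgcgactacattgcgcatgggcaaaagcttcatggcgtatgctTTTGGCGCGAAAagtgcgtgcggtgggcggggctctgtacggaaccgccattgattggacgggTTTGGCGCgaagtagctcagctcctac
Mcm5, chr8:75109349-75109488, plus strand: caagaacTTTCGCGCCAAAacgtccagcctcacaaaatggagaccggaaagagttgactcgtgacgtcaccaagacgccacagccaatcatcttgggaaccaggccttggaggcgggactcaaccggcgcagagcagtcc
Cdc6, chr11:98907991-98908130, plus strand: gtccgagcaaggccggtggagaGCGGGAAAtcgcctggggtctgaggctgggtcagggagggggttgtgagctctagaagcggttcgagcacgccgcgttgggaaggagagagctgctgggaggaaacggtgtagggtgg
Pola1, chrX:93632176-93632315, minus strand: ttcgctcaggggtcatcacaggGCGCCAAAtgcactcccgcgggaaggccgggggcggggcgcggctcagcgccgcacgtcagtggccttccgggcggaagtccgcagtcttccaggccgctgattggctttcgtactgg
Rrm2, chr12:24708094-24708233, plus strand: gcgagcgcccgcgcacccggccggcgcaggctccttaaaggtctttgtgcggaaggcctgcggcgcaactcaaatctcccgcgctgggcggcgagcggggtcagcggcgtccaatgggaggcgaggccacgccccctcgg
The Mcm6 words begin at -110 and -47 on the gene's strand and at -106 on the other, counted from the start, and those of Mcm5 at -153 and -149. Genes with a word were both called (Mcm6, Cdc6, Cdt1) and not called, Rfc3 among them with a difference of -0.07. The CHR words TTTGAA and TTCGAA, bound by the complexes that control later cell cycle genes, were in windows of 7 of 35 genes (20%), against 16.8% of matched tested genes. CCAAT, the word of the factor NF-Y, was in 21 of 35 (60.0%), against 43.3%. A word match is a description of these letters and not a measured binding site.

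Of 12 origin licensing genes, 3 passed the test, all lower in Ebi3-Treg, and 9 did not. For this role and those below, the share of all genes called lower was 2.93%. All 12 differences were negative, with a median of -0.55. Mcm6 (ENSMUSG00000026355), a subunit of the helicase ring, was at 180.1, 156, 125 and 145 FPKM in Ebi3-Treg 1 to 4 and at 292, 288, 281 and 338 FPKM in Blimp1-Treg 1 to 4. Every Blimp1-Treg library lay far above every Ebi3-Treg library. The means were 152 ± 23.1 and 299.8 ± 26.2 FPKM (SD, n = 4 each), and the difference was -0.99 (SE 0.14, limma adjusted p = 0.00726). Cdc6 (ENSMUSG00000017499), the ATPase that helps load the ring, was at 4.95, 3.82, 1.52 and 0.929 FPKM in Ebi3-Treg against 8.71, 7.56, 5.42 and 6.14 FPKM in Blimp1-Treg. The populations did not overlap, and within each of them the first table held the higher values. The Cdc6 difference was -1.19 (SE 0.23, limma adjusted p = 0.0217), and the largest adjusted p on leaving out a library was 0.0886. Cdt1, the other loading factor, had means of 18.9 ± 1.56 and 28.6 ± 0.784 FPKM (SD, n = 4 each), with no Ebi3-Treg library above 20.9 and no Blimp1-Treg library below 27.8 FPKM. Its difference was -0.58 (SE 0.12, limma adjusted p = 0.0306), with an adjusted p of up to 0.137 on leaving out a library.

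The other Mcm subunits had smaller differences than Mcm6, from -0.63 (Mcm3) to -0.30 (Mcm2), and none of the 5 passed. Mcm2 was at 130.1, 63.0, 80.7 and 96.4 FPKM in Ebi3-Treg and at 134, 68.9, 121 and 132 FPKM in Blimp1-Treg. Both libraries numbered 2 were the lowest of their population, and the populations overlapped. The ratio of Mcm6 to Mcm2, chosen after the values were seen and with no test, was 1.38 to 2.48 in Ebi3-Treg and 2.18 to 4.18 in Blimp1-Treg, and within each number it was higher in Blimp1-Treg. With the replicate block, 4 of the 6 subunits were called, namely Mcm6, Mcm3 (limma adjusted p = 0.0098), Mcm4 (0.0133) and Mcm7 (0.0394). That fit called 8.94% of all genes lower.

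Mcm10, which helps activate the loaded helicase, was at 7.06, 2.33, 4.27 and 3.92 FPKM in Ebi3-Treg and at 9.61, 5.03, 10.1 and 9.95 FPKM in Blimp1-Treg. Its difference was -0.87 (SE 0.31, limma adjusted p = 0.178, and 0.00984 with the replicate block). Gmnn encodes geminin, the inhibitor of Cdt1. It was at 20.1, 38.1, 16.1 and 9.51 FPKM in Ebi3-Treg and at 34.4, 70.1, 20.6 and 19.8 FPKM in Blimp1-Treg. Each Blimp1-Treg value was above the Ebi3-Treg value of the same number, but the populations overlapped. The Gmnn difference was -0.73 (SE 0.29, limma adjusted p = 0.228, and 0.00704 with the block). Of the 2 origin recognition subunits, Orc1 differed by -0.53 (SE 0.28, limma adjusted p = 0.386). Orc6 (ENSMUSG00000031697), the licensing gene with the largest p, was at 14.4, 26.3, 10.1 and 10.4 FPKM in Ebi3-Treg and at 16.3, 33.6, 10.6 and 10.1 FPKM in Blimp1-Treg. Those ranges overlapped, with Blimp1-Treg 2 the highest of all, and the difference was -0.13 (SE 0.26, limma adjusted p = 0.89).

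Genes of helicase activation were less uniform, with none of 5 called and a median of -0.24. Gins1 (ENSMUSG00000027454), a GINS subunit, was at 6.42, 7.41, 3.25 and 2.84 FPKM in Ebi3-Treg and at 9.99, 13.2, 7.55 and 3.97 FPKM in Blimp1-Treg. Blimp1-Treg 4 lay inside the Ebi3-Treg range. Its difference was -0.67 (SE 0.21, limma adjusted p = 0.118, and 0.017 with the replicate block). Cdc45, at 10.2, 8.78, 2.96 and 5.35 FPKM against 12.5, 11.5, 6.22 and 11.8 FPKM, overlapped through the low Blimp1-Treg 3. The Cdc45 difference was -0.62 (SE 0.26, limma adjusted p = 0.252, and 0.0335 with the block). Gins4 (ENSMUSG00000031546) was 1 of only 2 genes of the list with a positive difference. It was at 29.8, 55.5, 30.2 and 26.6 FPKM in Ebi3-Treg and at 32.6, 50.5, 25.8 and 22.8 FPKM in Blimp1-Treg. The populations overlapped, and both libraries numbered 2 stood highest. The difference was 0.11 (SE 0.23, limma adjusted p = 0.897), and its sign was not kept under every alternative. Gins2 and Gins3 differed by -0.23 and -0.24, and 67.3% of the exon bases of Gins2 in the reference also lie in exons of Gse1 on the other strand.

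Among the polymerase and primase genes, 1 of 6 was called, with a median of -0.48. Prim1 (ENSMUSG00000025395), the catalytic subunit of the primase that starts each strand, was at 13.9, 16.8, 5.75 and 5.26 FPKM in Ebi3-Treg and at 19.3, 28.1, 11.3 and 13.1 FPKM in Blimp1-Treg. The populations were apart within each table and overlapped across tables, where the first table was higher. The difference was -0.80 (SE 0.18, limma adjusted p = 0.0439), and leaving out a library raised the adjusted p to as much as 0.163. Pola1 (ENSMUSG00000006678), the catalytic subunit of polymerase alpha, was at 7.81, 5.89, 8.39 and 6.12 FPKM in Ebi3-Treg and at 12.6, 8.97, 12.5 and 14.0 FPKM in Blimp1-Treg. No values overlapped, yet the difference of -0.69 (SE 0.19) did not pass, with a limma adjusted p of 0.0736, and of 0.0117 with the replicate block. Its partner subunit Pola2 (ENSMUSG00000024833) was at 27.0, 18.1, 19.7 and 18.0 FPKM in Ebi3-Treg and at 25.3, 16.1, 21.6 and 23.5 FPKM in Blimp1-Treg. The order of the populations was reversed between the tables, and the difference was -0.06 (SE 0.20, limma adjusted p = 0.945). Pold1 and Pole, the catalytic subunits of polymerases delta and epsilon, varied widely among libraries: Pold1 ranged from 24.0 to 67.8 FPKM in Ebi3-Treg and from 22.5 to 74.7 FPKM in Blimp1-Treg, with number 2 lowest in both. Their differences were -0.24 (SE 0.40) and -0.70 (SE 0.45), and that of the primase subunit Prim2 was -0.28 (SE 0.16); none passed.

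The sliding clamp and its loader formed the role with the smallest differences, with none of 5 genes called in any fit of both tables and a median of -0.09. Pcna, the clamp itself and a common proliferation marker, was at 183, 379, 159.8 and 163 FPKM in Ebi3-Treg and at 196, 458, 167 and 172 FPKM in Blimp1-Treg. Apart from number 2, which was high in both populations, all values lay within a narrow band. The Pcna difference was -0.13 (SE 0.30, limma adjusted p = 0.915, and 0.264 with the replicate block), and reads of its processed pseudogenes Pcna-ps1 and Pcna-ps2 could not be separated here. Rfc5 (ENSMUSG00000029363), a clamp loader subunit, had the most positive difference of the list. It was at 40.1, 48.1, 31.8 and 37.4 FPKM in Ebi3-Treg and at 36.5, 32.4, 32.1 and 34.6 FPKM in Blimp1-Treg. The ranges overlapped, and the difference was 0.19 (SE 0.14, limma adjusted p = 0.577). Rfc4 was at 26.8, 44.3, 16.4 and 17.0 FPKM in Ebi3-Treg and at 28.7, 47.6, 19.5 and 21.0 FPKM in Blimp1-Treg, a difference of -0.18 (SE 0.21, limma adjusted p = 0.784). Rfc3 was at 24.0, 42.2, 16.2 and 16.6 FPKM in Ebi3-Treg and at 23.1, 44.3, 17.9 and 18.5 FPKM in Blimp1-Treg. Its values interleaved, with a difference of -0.07 (SE 0.25, limma adjusted p = 0.945), and Rfc2 differed by -0.09 (SE 0.13).

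Of the genes of strand maturation and single-strand binding, 3 of 4 were tested and none was called, with a median of -0.50. Rpa1 (ENSMUSG00000000751), the large subunit of the protein that coats single-stranded DNA, was at 44.8, 52.0, 66.8 and 64.6 FPKM in Ebi3-Treg and at 78.3, 64.4, 92.0 and 87.7 FPKM in Blimp1-Treg. Within each number Blimp1-Treg was higher, and across numbers the ranges overlapped slightly. The difference was -0.50 (SE 0.12, limma adjusted p = 0.0583, and 0.0129 with the replicate block). Lig1 (ENSMUSG00000056394), the ligase that joins Okazaki fragments, was at 21.4, 16.5, 9.55 and 9.90 FPKM in Ebi3-Treg and at 29.4, 22.5, 18.6 and 22.4 FPKM in Blimp1-Treg. Only Ebi3-Treg 1 reached into the Blimp1-Treg range. The difference was -0.72 (SE 0.19, limma adjusted p = 0.0659, and 0.0126 with the block). Rpa2, another subunit of the single-strand binding protein, was at 89.8, 126, 82.3 and 86.2 FPKM in Ebi3-Treg and at 104, 125, 82.3 and 95.1 FPKM in Blimp1-Treg, a difference of -0.08 (SE 0.15, limma adjusted p = 0.871). Fen1 (ENSMUSG00000024742), the nuclease that trims Okazaki fragments, was the one gene below the filter on low values. It was at 0.122, 0.133, 0.0669 and 0.0202 FPKM in Ebi3-Treg and at 0.143, 0.412, 0.0928 and 0.0303 FPKM in Blimp1-Treg. That corresponds to 1 to 18 reads at a fitted length of 2240 bases, the shortest giving whole reads in every library. With the reference exon length of Fen1, 2422 bases, it would be 1.08 to 19.45 reads. In the reference annotation, 84.2% of its exon bases also lie in exons of Tmem258 or Gm10143 on the other strand, so these values may not measure Fen1 RNA, and no comparison was made.

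Nucleotide supply held the largest difference of the list. Rrm2 (ENSMUSG00000020649), the small subunit of ribonucleotide reductase whose protein is known to accumulate in S phase, was at 45.3, 48.9, 17.4 and 20.2 FPKM in Ebi3-Treg and at 126, 137, 73.1 and 89.6 FPKM in Blimp1-Treg. Every Blimp1-Treg library was above every Ebi3-Treg library, and both populations were higher in the first table. The means were 33.0 ± 16.5 and 107 ± 30.1 FPKM (SD, n = 4 each), a difference of -1.76 (SE 0.16, limma adjusted p = 0.00124). Rrm1 (ENSMUSG00000030978), the large subunit, was at 25.7, 21.2, 19.8 and 20.1 FPKM in Ebi3-Treg and at 34.9, 30.3, 32.8 and 38.2 FPKM in Blimp1-Treg. These did not overlap either, and the difference was smaller, at -0.63 (SE 0.15, limma adjusted p = 0.0441, and up to 0.171 on leaving out a library). The ratio of Rrm2 to Rrm1, chosen after the values were seen and with no test, was 0.876 to 2.31 in Ebi3-Treg and 2.23 to 4.52 in Blimp1-Treg. The remaining 3 genes, which make or clear thymidine and uridine nucleotides, did not pass. Thymidylate synthase (Tyms) differed by -0.31 (SE 0.16), with a pseudogene Tyms-ps in the annotation, and the dUTPase gene Dut by -0.21 (SE 0.21). Thymidine kinase (Tk1, ENSMUSG00000025574) was at 32.1, 25.1, 20.5 and 18.2 FPKM in Ebi3-Treg and at 28.5, 29.4, 22.3 and 21.3 FPKM in Blimp1-Treg. Its ranges overlapped almost fully, with a difference of -0.10 (SE 0.14, limma adjusted p = 0.829).

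**Figure D2:**
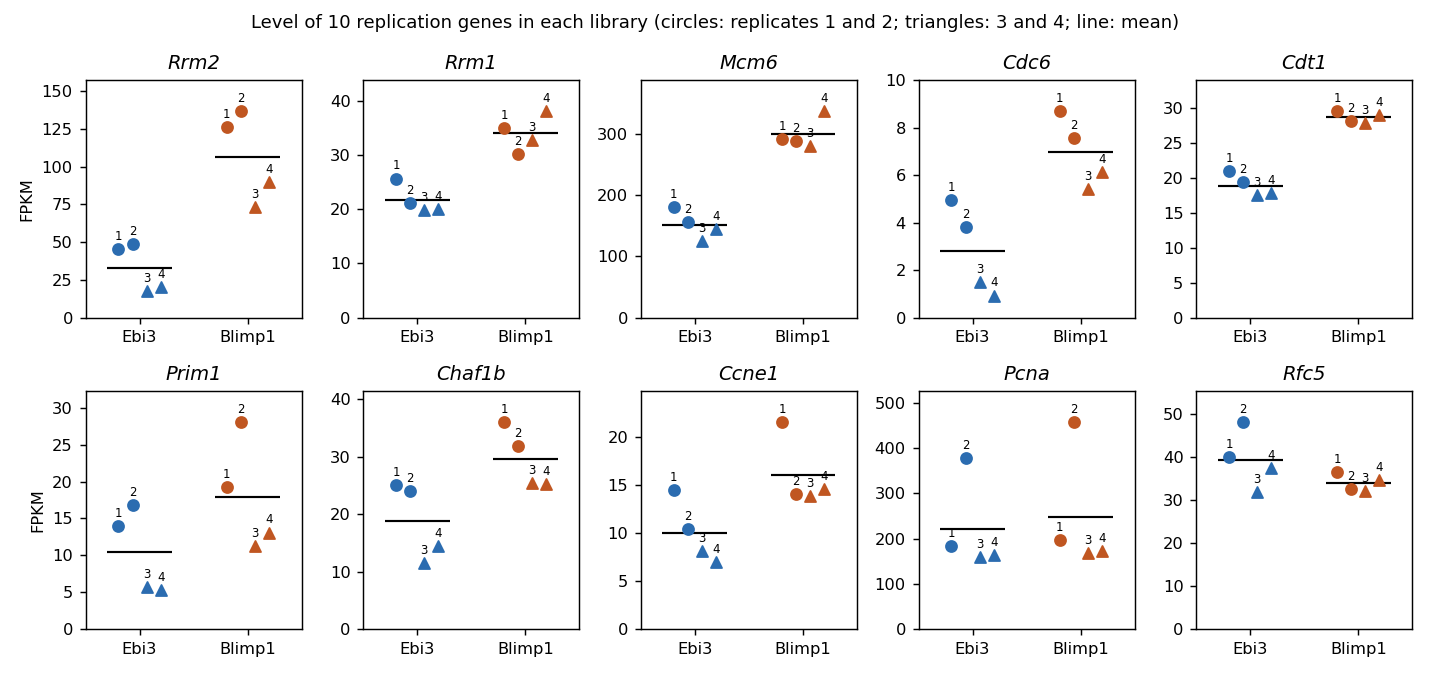
FPKM of 10 replication genes in each of the 4 Ebi3-Treg and 4 Blimp1-Treg libraries (circles, replicates 1 and 2; triangles, replicates 3 and 4; line, mean). The populations do not overlap for Rrm2, Rrm1, Mcm6, Cdc6, Cdt1 and Chaf1b, and for Pcna replicate 2 of each population, at 379 and 458 FPKM, stands above the others.

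Chromatin assembly and histone supply followed, with 1 of 3 genes called. Chaf1b (ENSMUSG00000022945), a subunit of the factor that places histones on new DNA, was at 25.0, 24.1, 11.5 and 14.5 FPKM in Ebi3-Treg and at 36.0, 31.9, 25.4 and 25.3 FPKM in Blimp1-Treg. The lowest Blimp1-Treg library was only just above the highest Ebi3-Treg library. The difference was -0.68 (SE 0.16, limma adjusted p = 0.0418), and up to 0.163 on leaving out a library. Slbp, which binds the stem-loop at the end of histone messages, was at 114, 241, 116 and 101 FPKM in Ebi3-Treg and at 164, 347, 157 and 151 FPKM in Blimp1-Treg. Number 2 was high in both populations, and within each number Blimp1-Treg was higher. The Slbp difference was -0.52 (SE 0.29, limma adjusted p = 0.422, and 0.00325 with the replicate block). Chaf1a, the large subunit of the same assembly factor, was at 22.4, 11.7, 14.1 and 24.5 FPKM in Ebi3-Treg and at 21.9, 12.7, 19.9 and 38.9 FPKM in Blimp1-Treg. The ranges overlapped, the difference was -0.30 (SE 0.33, limma adjusted p = 0.763), and 52.5% of its exon bases are shared with Ubxn6 on the other strand.

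Among the genes of S phase entry none of 4 was called, with a median of -0.59. Ccne1 (ENSMUSG00000002068), a cyclin that drives entry with Cdk2, was at 14.4, 10.4, 8.10 and 7.02 FPKM in Ebi3-Treg and at 21.5, 14.0, 13.9 and 14.6 FPKM in Blimp1-Treg. Ebi3-Treg 1 lay among the lower Blimp1-Treg values. The difference was -0.65 (SE 0.20, limma adjusted p = 0.104, and 0.0108 with the replicate block). Its relative Ccne2 was at 5.87, 9.15, 6.29 and 4.71 FPKM in Ebi3-Treg and at 10.1, 17.2, 8.39 and 7.26 FPKM in Blimp1-Treg, overlapping through Ebi3-Treg 2. That difference was -0.61 (SE 0.23, limma adjusted p = 0.192, and 0.0145 with the block). E2f2, an activating E2F factor, was at 26.4, 8.73, 17.5 and 15.3 FPKM in Ebi3-Treg and at 29.5, 6.87, 29.1 and 30.5 FPKM in Blimp1-Treg. Both libraries numbered 2 were far below the rest, and E2f2 differed by -0.38 (SE 0.48, limma adjusted p = 0.805). Its relative E2f1 differed by -0.56 (SE 0.30, limma adjusted p = 0.387).

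The contrast was also fitted within each table. A difference between the tables was not called for any gene of the list, nor for any of the 12273 genes tested. With numbers 3 and 4 alone, 18 of 43 genes (41.9%) were called lower by limma, against 5.47% of all genes, with a median difference of -0.59. Leaving out any of these libraries gave fewer calls. Such a fit leaves a lone library in 1 population, which is assumed to vary like the other population's pair. Fewer calls follow in part from its size, so those counts are not given here. With numbers 1 and 2 alone, limma called 0 of 43 (0% of all genes, and 1 of 43 at an unadjusted p under 0.05, against 5.76% of all genes), with a median of -0.30, while the blocked fit of the same 4 libraries called 17, against 9.26% of all genes. For 34 of 43 genes (79.1%) the difference was lower in the second table, as it was for 59.8% of all genes. Rrm2 differed by -1.46 in the first table and by -2.05 in the second, Cdc6 by -0.77 and -1.62, and Mcm6 by -0.79 and -1.19. E2f2 went from 0.08 to -0.83 and Pole from -0.30 to -1.11. The test of the difference between tables was the interaction term in limma (0 of 43 called, against 0% of all genes, and 0 at an unadjusted p under 0.05, against 1.65%). As it called no gene at all, it does not show that the tables agree. Both Ebi3-Treg values were below both Blimp1-Treg values for 37 of 43 genes with numbers 3 and 4, against 25.3% of all genes. With numbers 1 and 2 this held for 16 of 43, against 10.4%, and in each of the pairs of numbers for 15 of 43, against 7.3%. Of those 15, 8 were not called.

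**Figure D3:**
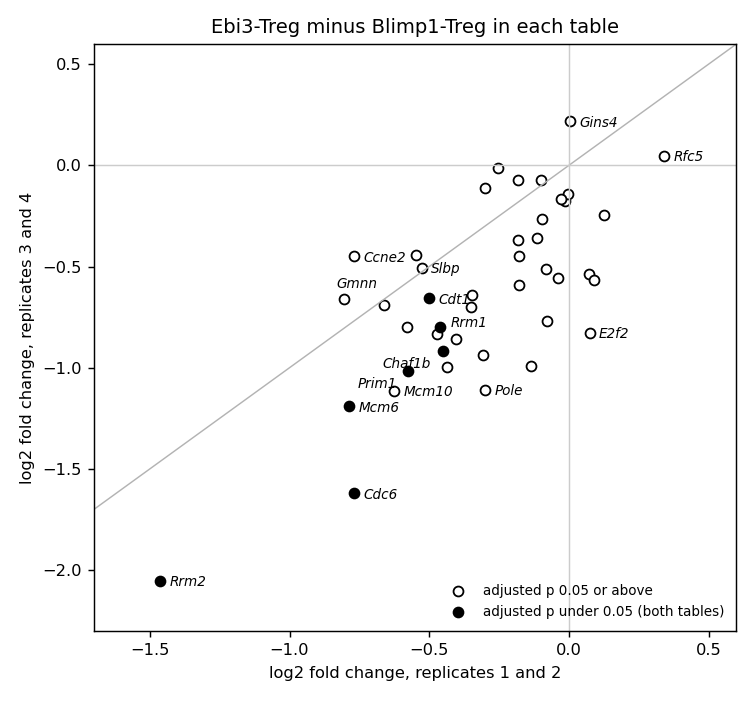
Difference of the populations (Ebi3-Treg less Blimp1-Treg) on the log2(FPKM + 1) scale with replicates 1 and 2 (x axis) and with replicates 3 and 4 (y axis) for the 43 tested genes; the diagonal marks equal differences and filled points were called with both tables. Most points, 34 of 43, lie below the diagonal.

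Part of the spread between libraries followed gene length. In both libraries numbered 2, short genes of the list were above and long genes below their population's mean: over 43 genes, Pearson's r of that deviation with log2 exon length was -0.62 in Ebi3-Treg 2 and -0.60 in Blimp1-Treg 2, against 0.01 to 0.69 in the other 6. The points share their library, and over 12232 genes the same r was -0.24 and -0.23. Gmnn, Pcna and Gins4 were among the short genes that stood high, and Pole and Mcm10 among the long genes that stood low, whereas Slbp stood high and E2f2 and Pold1 low beyond other genes of their length. As an alternative added after the data were seen, a smoothed (lowess) trend on log2 exon length was removed from each library's deviation from the gene mean. This gave 13 of 43 called lower, with all 7 kept and Gins1, Lig1, Mcm10, Mcm3, Mcm4 and Pola1 added. The share of all genes called in that fit is not given here. The difference between populations itself was almost unrelated to exon length over the 43 genes (r = -0.07) and to the level of the gene (r = 0.14).

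**Figure D4:**
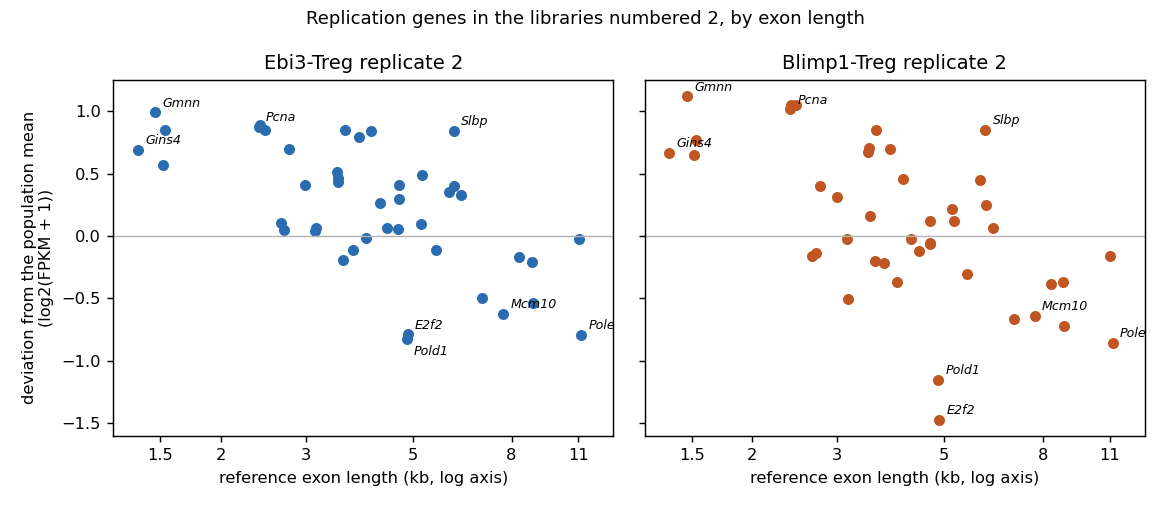
Deviation of each of 43 replication genes from its population's mean, in log2(FPKM + 1), against reference exon length (log axis, kb) in Ebi3-Treg 2 and Blimp1-Treg 2. Points fall from left to right in both panels, with r of -0.62 and -0.60.

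Other replication genes outside the list, 50 by name and all tested, had a median of -0.11: 6 (12%) were called lower, against 2.93% of all genes, and 0 higher (2 at an unadjusted p under 0.05), against 3.37%. With the replicate block 14 were lower, against 8.94%, and 2 higher, against 13.5%. The unblocked count was 2 without Ebi3-Treg 3 or Blimp1-Treg 4, where the share of all genes called is not given here. Ccna2, the S phase cyclin that partners Cdk2, was lower in Ebi3-Treg at 4.54 ± 3.76 against 18.3 ± 3.36 FPKM (SD, n = 4 each), a difference of -2.06 (limma adjusted p = 0.00822). Pclaf, a Pcna-binding factor, differed by -1.67 (limma adjusted p = 0.00411), although Pcna did not pass. Dck, which makes deoxycytidine monophosphate by salvage, and Mtbp, which acts in origin firing, differed by -0.83 and -0.90 and lost the call without Ebi3-Treg 3 or Blimp1-Treg 4, with adjusted p up to 0.0557 and 0.0761. On the positive side, none passed without the block; the folate enzyme gene Shmt1 was at 0.63 (limma adjusted p = 0.0699, and 0.0167 with the block), the polymerase delta subunit gene Pold2 at 0.35 (0.202, and 0.0426 with the block), Rnaseh2b, a subunit of ribonuclease H2, at 0.36, and the large clamp loader subunit gene Rfc1 at 0.35.

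Genes of mitosis, the step after replication, were listed for comparison. Of 33 by name, 32 were tested (Anln was below the filter). All 32 were negative, against 40.8% of all genes, and 22 (68.8%) were called lower, against 2.93%, with a median of -1.24. The count was 10 to 12 without Ebi3-Treg 3, Ebi3-Treg 4, Blimp1-Treg 3 or Blimp1-Treg 4. Whether that drop is particular to mitosis genes cannot be told, as the share of all genes called in those fits is not given here. Racgap1, which acts in cytokinesis, had means of 34.3 ± 8.83 FPKM in Ebi3-Treg but 96.2 ± 8.11 FPKM in the other population (SD, n = 4 each), a difference of -1.49 (limma adjusted p = 0.0021). Birc5 (survivin), Ccnb2 (a mitotic cyclin) and Prc1 (a spindle midzone protein) differed by -1.65, -1.52 and -1.65. The mean log2(FPKM + 1) of the replication list was 4.72, 4.62, 4.12 and 4.12 in Ebi3-Treg 1 to 4 and 5.01, 4.95, 4.68 and 4.80 in Blimp1-Treg 1 to 4. For mitosis it was 3.13, 3.03, 2.10 and 2.23 against 4.0, 3.95, 3.50 and 3.79. In both lists the second table was lower than the first in each population, and Ebi3-Treg 3 and 4 were lowest.

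**Figure D5:**
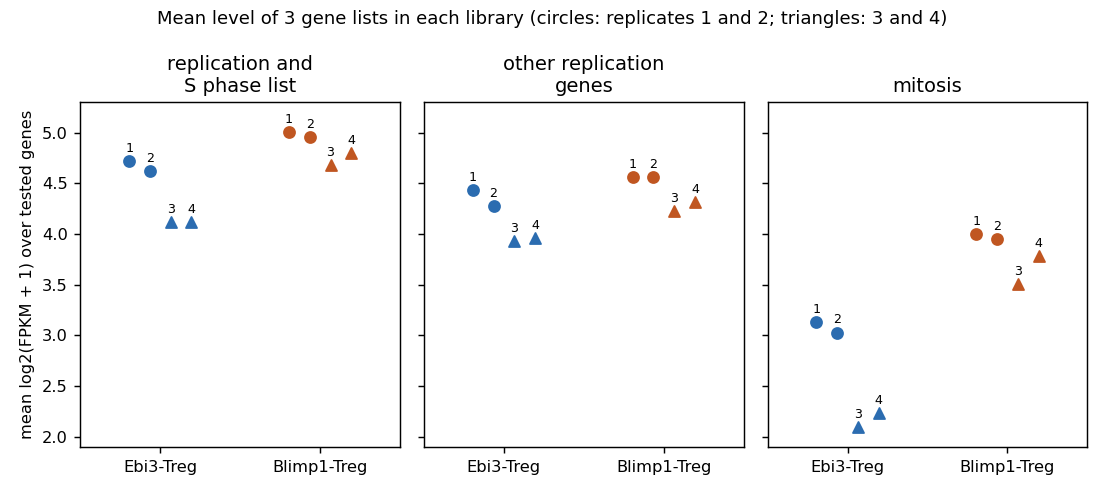
Mean log2(FPKM + 1) over the tested genes of the replication list, of other replication genes and of mitosis genes in each of the 8 libraries (circles, replicates 1 and 2; triangles, replicates 3 and 4). Ebi3-Treg replicates 3 and 4 are lowest in each panel, and for the replication list they are both at 4.12.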

How the data were processed

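RNA-seq libraries of 2 sorted lymph node Treg populations, 4 each, were analysed. The authors deposited 2 tables of FPKM values per gene; TopHat2 2.0.12, Bowtie2 2.2.3, HTSeq 0.6.1 and build mm9 are named per the submitters' processing notes. How reads were counted, and on which annotation, is not given in the sources used here. Columns were matched to samples by name and tables joined on Ensembl ID. Log2(FPKM + 1) values were fitted in limma 3.58.1 under R 4.3.3, with terms for population and table and a variance trend, for the 12273 genes that reached 1 FPKM in 4 or more of the 8 libraries. Tests were two-sided, with Benjamini-Hochberg adjusted p under 0.05; the fit was tested on simulated data. The added constant understates changes of low genes. Library depth was recovered from whole-read steps: with reference exon lengths, 55.9% to 67.7% of low values were whole within 0.01, too few for a count test. Same-numbered libraries deviated together (r of 0.62, 0.89, 0.53 and 0.54 for numbers 1 to 4 over all genes). Blocked values are therefore given where they change the call of a named gene of the lists, and for some markers. However, Ebi3-Treg 4 with Blimp1-Treg 3 reached 0.61 and Ebi3-Treg 3 with Blimp1-Treg 4 reached 0.56. The deviations are from population means over both tables, so a shift between tables enters them. For numbers 3 and 4 they do not show that the numbers pair, and the labels name no shared animal. Values in every library are given for the 2 genes of each role with the smallest p, the one with the largest p, positive or filtered genes and a few more, and each other list is represented by its 4 genes of smallest p in a direction. The genes and lists were chosen with earlier results of these data known. One further marker is not reported here.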

Additional observations from a re-analysis of the deposited data

Results flagged for a closer look

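In groups of 4 libraries, 10 of 88 group and gene combinations had 1 library far from the other 3. The rule is meant to flag about 1 in 20 of independent groups. These combinations share the same 8 libraries, so that rate is not a reference here. Most of the 10 were libraries numbered 2. In Ebi3-Treg 2, Pcna was at 379 FPKM against 160 to 183 in the other 3, Slbp at 241 against 101 to 116, Gins4 at 55.5 against 26.7 to 30.2 and Rpa2 at 126 against 82.3 to 89.8. In Blimp1-Treg 2, Pcna was at 458 FPKM against 167 to 196 and Slbp at 347 against 151 to 164, while Mcm10 was at 5.03 against 9.61 to 10.1 and E2f2 at 6.87 against 29.1 to 30.5. The other 2 were Cdc45 in Blimp1-Treg 3, at 6.22 FPKM against 11.5 to 12.5, and Ccne1 in Blimp1-Treg 1, at 21.5 against 13.9 to 14.6. Without both libraries numbered 2, 17 replication genes were called lower.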

How the results depend on the processing

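The count of replication genes called lower, 7 of 43, was 2 with no filter on low values, 2 with no table term, 11 with median centring, 13 with the length trend removed, 18 without both libraries numbered 1, 17 without both numbered 2, 20 with the replicate block, and 2 to 10 on leaving out each library. With replicates 3 and 4 alone the count of 18 became 0 with no filter and 11 with no variance trend, and it was lower on leaving out a library. With replicates 1 and 2 alone the count of 0 became 17 with the replicate block. Other replication genes called lower, 6, became 2 with no table term, 12 without both numbered 1, 14 with the replicate block and 2 to 7 on leaving out a library. Mitosis genes called lower, 22, became 11 with no table term and 10 to 22 on leaving out a library. Regulators of S phase entry called, 3, became 5 with upper quartile scaling, 6 with median centring, 6 with the length trend removed, 10 without both numbered 1, 10 without both numbered 2, 11 with the replicate block and 2 to 6 on leaving out a library. The cause of these changes was not tested, and the share of all genes called is not set beside these counts. No gene of the replication list was called higher, and none was called for an interaction with the table, under the alternatives run. Over 21 alternatives, 903 single-gene results of the list gave 794 unchanged in direction and side of the threshold, 43 that lost the call, 54 that gained it, 12 sign changes in 6 uncalled genes (Orc6, Gins4, Pola2, Pcna, Rfc3, Rpa2) and 0 called results reversed. The list's median difference stayed between -0.56 and -0.36, and 37 to 41 of 43 genes were negative.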

Other observations

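Genes listed as regulators of S phase entry moved in both directions. Of 29 by name, 28 were tested (Ccnd1 was below the filter) and 3 were called, against 6.29% of all genes in either direction. With the replicate block 11 were called, against 22.4% of all genes. Without Ebi3-Treg 1 the unblocked count was 6, where the share of all genes called is not given here. Cdkn2c, which encodes the Cdk4 and Cdk6 inhibitor p18, was lower in Ebi3-Treg at 7.63 ± 3.94 against 36.4 ± 10.9 FPKM (SD, n = 4 each), a difference of -2.16 (limma adjusted p = 0.00138). E2f7, a repressing E2F factor, was lower by the same test, with a difference of -1.22 (limma adjusted p = 0.0407) that lost the call on leaving out Ebi3-Treg 2, 3 or 4 or Blimp1-Treg 1, 3 or 4, with an adjusted p of up to 0.147. Myc, a growth-promoting transcription factor, was higher in Ebi3-Treg at 148 ± 29.4 against 50.6 ± 10.9 FPKM (SD, n = 4 each), a difference of 1.54 (limma adjusted p = 0.006). E2f8, Cdk6, Cdk4, E2f5 and Cdkn1b did not pass, with differences of -1.35, -1.13, 0.47, 0.53 and 0.30. With the block the first 4 of these passed, with limma adjusted p of 0.00636, 0.00347, 0.0111 and 0.0193.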
